A study of Homo sapiens with 17 samples.

Results

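The microRNA processing and silencing machinery was followed through 10 genes named by symbol, which were all found among the 18869 genes of the deposited table. They encode the nuclear Microprocessor (DROSHA and DGCR8), the export receptor XPO5, the cytoplasmic nuclease DICER1, the Argonaute proteins AGO1, AGO2 and AGO3, and the scaffold proteins TNRC6A, TNRC6B and TNRC6C. The values came from Ribo-STAMP combined with RNA immunoprecipitation of PABPN, the nuclear poly(A) binding protein, and PABPC, its cytoplasmic counterpart. The cells were HEK293T, a line derived from human embryonic kidney, carrying a doxycycline-inducible construct. RPS2-STAMP cells expressed a fusion of the ribosomal protein RPS2 with APOBEC1, a C-to-U editor, which places edits on RNAs in contact with ribosomes, and Control-STAMP cells expressed APOBEC1 without RPS2. All cells received 50 ng/ml doxycycline for 24 h and were fixed with 0.1% formaldehyde before lysis and sonication. The 17 samples comprised 9 of RPS2-STAMP, with 3 per fraction, and 8 of Control-STAMP. The fractions were the Input, RNA recovered with PABPN (PABPN IP) and RNA recovered with PABPC (PABPC IP). Control-STAMP had 2 samples in the last of these and 3 in each of the others. The study describes the lysate as cytoplasmic, whereas the sample labels name no fractionation.

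A microRNA begins as a hairpin in a longer transcript. The Microprocessor cuts the hairpin out in the nucleus, XPO5 carries it to the cytoplasm, and DICER1 trims it to a short duplex from which an Argonaute protein keeps one strand as a guide. A TNRC6 protein bound to Argonaute then brings deadenylases to the target, whose poly(A) tail is shortened and whose translation is repressed.

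Some of the genes that make microRNAs also carry them, and these sequences are shown because the RNA of the host genes was measured in the same fractions. Microprocessor cleavage of hairpins within the DGCR8 message is a known feedback in this pathway. RefSeq (build GRCh38.p14) placed 5 mature microRNAs on the sense strand of members, 3 in DGCR8 and 2 in DICER1. Capitals mark the seed, bases 2 to 8, which pairs with targets.
hsa-miR-3618: uGUCUACAuuaaugaaaagagc
hsa-miR-1306-5p: cCACCUCCccugcaaacgucca
hsa-miR-1306-3p: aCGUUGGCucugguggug
hsa-miR-3173-5p: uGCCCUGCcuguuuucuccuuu
hsa-miR-3173-3p: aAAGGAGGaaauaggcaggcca
None of the 5 seeds was shared within this set. In DGCR8, hsa-miR-3618 (chr22:20085797-20085818, plus strand) lay in the 5′ UTR part of exon 2. The arms hsa-miR-1306-5p (chr22:20086072-20086093) and hsa-miR-1306-3p (chr22:20086112-20086129) lay in the coding part of the same exon. In DICER1, hsa-miR-3173-5p (chr14:95137961-95137982, minus strand) and hsa-miR-3173-3p (chr14:95137923-95137944) lay in intron 1. Thus 2 of the 10 members held a microRNA gene on their own strand, as did 5.94% of the 9598 PCGs with an annotation.

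A further 7 sequences came from 4 host transcripts and represent 2 of the seeds found in more than 1 host. They were chosen after values were seen, because their hosts differed in how the RNA was distributed, which was not so for every shared seed. The seed AAAGUGC was carried by MIR17HG, a long non-coding host, and by an intron of the replication gene MCM7.
hsa-miR-17-5p: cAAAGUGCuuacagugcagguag
hsa-miR-20a-5p: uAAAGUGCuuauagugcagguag
hsa-miR-93-5p: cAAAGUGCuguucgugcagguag
hsa-miR-106b-5p: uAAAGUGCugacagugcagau
The seed AGCAGCA was carried by the condensin gene SMC4 and by the non-coding host DLEU2, and hsa-miR-16-5p is encoded in both.
hsa-miR-15b-5p: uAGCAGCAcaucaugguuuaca
hsa-miR-16-5p: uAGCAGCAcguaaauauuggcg
hsa-miR-15a-5p: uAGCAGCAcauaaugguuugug
All of these lay in introns of the canonical host transcript. In intron 3 of MIR17HG were hsa-miR-17-5p (chr13:91350618-91350640, plus strand) and hsa-miR-20a-5p (chr13:91351072-91351094). In intron 13 of MCM7 were hsa-miR-93-5p (chr7:100093815-100093837, minus strand) and hsa-miR-106b-5p (chr7:100094043-100094063). In intron 5 of SMC4 were hsa-miR-15b-5p (chr3:160404607-160404628, plus strand) and a copy of hsa-miR-16-5p (chr3:160404754-160404775). In intron 6 of DLEU2 were the other copy of hsa-miR-16-5p (chr13:50049027-50049048, minus strand) and hsa-miR-15a-5p (chr13:50049167-50049188).

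The deposited table gives 6 values per gene, an average TPM and a normalized EPKM in each of the 3 fractions. TPM is a read level scaled to transcript length and library size, here over exons and introns together. EPKM is the rate of edits scaled in the same way, with control editing subtracted. This scaling does not include the RNA level of the gene, so EPKM was not read as editing per RNA. Each value is pooled over samples, so no SD, n or test accompanies a value, no difference between fractions has a replicate check, and whether neighbours in an order of levels differ cannot be told. The comparison set was the 9607 protein-coding genes (PCGs) that reached 5 TPM in each of the IPs, and all 10 members were among them. TPM ratios were taken as log2 of (TPM + 0.5), which understates changes of low genes. They were centred on the PCG median because the uncentred medians over PCGs were 1.10 for PABPN IP over Input, 0.95 for PABPC IP over Input and -0.19 for PABPC IP over PABPN IP. A gene more than 0.5 above or below the PCG median was called enriched or depleted. The 3 ratios share fractions and are not independent of each other.

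The RNAs of all 10 members had their highest TPM in the PABPN IP, as did 57.5% of PCGs. Summed over the 10 members, TPM was 185 in the Input, 781 in the PABPN IP and 231 in the PABPC IP. Relative to the PCG median, 8 of the 10 members were enriched with PABPN over the Input, where 23.7% of PCGs were called, and none was depleted, where 20.6% of PCGs were called. The remaining genes, XPO5 and AGO1, had centred ratios of 0.38 and 0.48, the latter just inside the threshold. The members' median was 1.08, against PCG quartiles of -0.42 and 0.47. Without centring, all 10 members and 84.1% of PCGs exceeded 0.5, and 0.583% of PCGs were below -0.5.

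**Figure D1:**
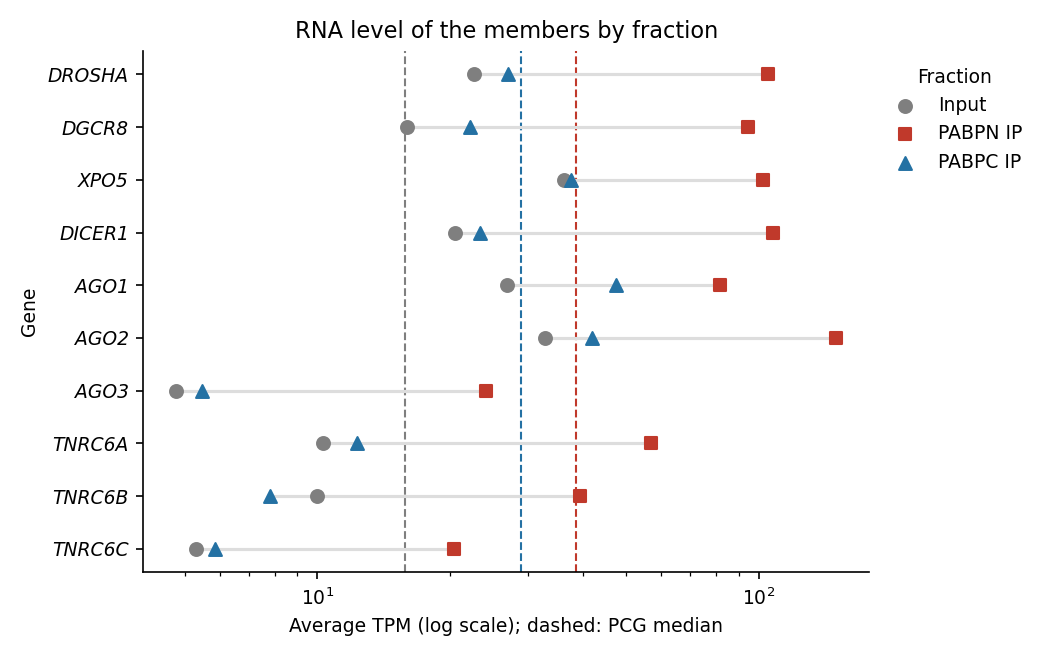
Average TPM (log axis) of the 10 members in the Input (circles), the PABPN IP (squares) and the PABPC IP (triangles), with the PCG median of each fraction as a dashed line of the same colour. Every square lies to the right of the other 2 symbols of its gene, and AGO3, TNRC6B and TNRC6C have the lowest levels in the PABPC IP.

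In the PABPC IP the members sat on the opposite side. Relative to the PCG median, 8 of the 10 were depleted from PABPC against the Input (17.4% of PCGs) and none was enriched (9.02% of PCGs), with a members' median of -0.74 and PCG quartiles of -0.35 and 0.28. This direction is relative to other PCGs and depends on the centring, without which 7 of the 8 changed sign. In plain TPM, 9 of the 10 members were above their Input level in the PABPC IP, near the share of PCGs (95.4%), and the members' uncentred median was 0.21. On that scale 80.2% of PCGs but 1 member, AGO1, exceeded 0.5, and 0.854% of PCGs and no member were below -0.5. Between the IPs, all 10 members leaned to PABPN over PABPC, where 31.1% of PCGs did, and none leaned to PABPC, where 29.9% of PCGs did. The members' median was -1.80, from -2.07 for TNRC6B to -0.59 for AGO1. It was -1.99 without centring, where all 10 members and 37.2% of PCGs were below -0.5 and 22.7% of PCGs were above 0.5. With centring on PCGs of at least 1 TPM in every fraction, AGO1 came to -0.47 and 9 members leaned to PABPN.

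**Figure D2:**
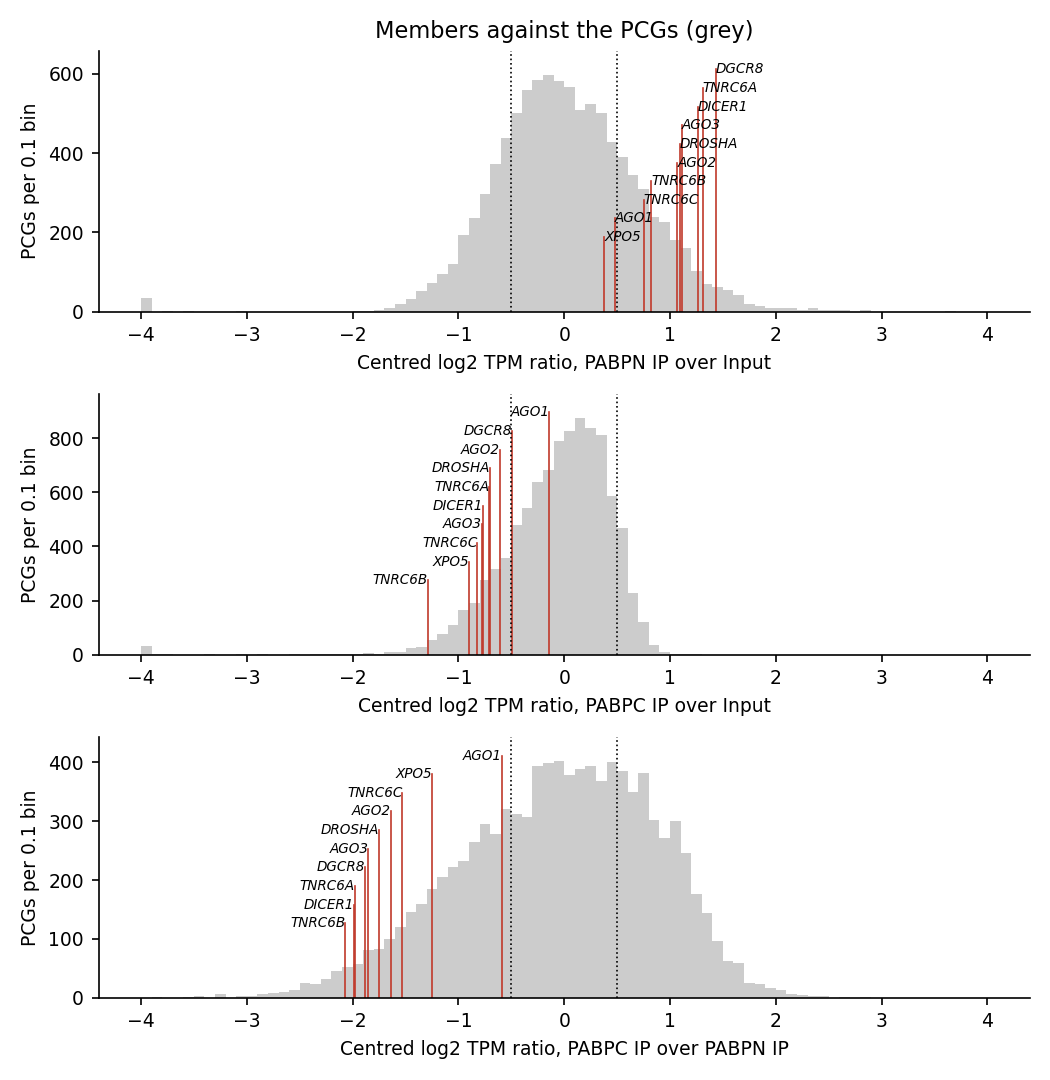
Number of PCGs (grey bars, 0.1 log2 per bin, values beyond the axis in the end bins) by centred log2 TPM ratio for PABPN IP over Input (top), PABPC IP over Input (middle) and PABPC IP over PABPN IP (bottom), with each member as a red line and the thresholds of 0.5 and -0.5 dotted. In the bottom panel 9 members lie between -2.07 and -1.25 and AGO1 lies at -0.59.

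DROSHA (ENSG00000113360, chr5:31400494-31532196, minus strand), the nuclease of the Microprocessor, had a TPM of 22.6 in the Input, 104.8 in the PABPN IP and 27.0 in the PABPC IP. Its partner DGCR8 (ENSG00000128191, chr22:20080221-20111877, plus strand), which binds the hairpin, had 15.9, 94.3 and 22.1 TPM in the same order. Both RNAs were thus several times as abundant in the PABPN IP as in either other fraction. The centred ratio of PABPN IP over Input was 1.09 for DROSHA and 1.43 for DGCR8, the highest among the members and at the 97.6th percentile of PCGs. For PABPC IP over Input, DROSHA stood at -0.70 and DGCR8 at -0.49, just inside the threshold, and without centring both were above 0, at 0.25 and 0.46.

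The Microprocessor subunits differed in editing. EPKM of DROSHA was 0.0702 in the Input, 0.0525 in the PABPN IP and 0.0440 in the PABPC IP, a narrow range with the Input on top. EPKM of DGCR8 was 0.0153 in the Input, 0.105 in the PABPN IP and 0.00914 in the PABPC IP, so that the PABPN IP value stood apart. The hairpins inside exon 2 of DGCR8 are listed in the table as genes of their own, MIR3618 and MIR1306, with an EPKM and no TPM. MIR3618, which spans 88 bases, was listed at 0 in the Input, and its EPKM was 0.310 with PABPN and 0.250 with PABPC. MIR1306, over 85 bases, had 0.180 in the Input and 0.0899 with PABPC, and was listed at 0 with PABPN. Edits in these intervals cannot be assigned to the hairpins rather than to the DGCR8 transcript that contains them. The lncRNA ENSG00000243762 on the opposite strand covers a further 1055 exonic bases of DGCR8.

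XPO5 (ENSG00000124571, chr6:43522334-43576038, minus strand), the export receptor for precursor hairpins, had the highest Input level of the members. Its TPM was 36.3 in the Input, 102.3 in the PABPN IP and 37.5 in the PABPC IP, so that the Input and the PABPC IP were nearly equal. The centred ratios were 0.38 for PABPN IP over Input, the lowest of the members, -0.90 for PABPC IP over Input (0.05 without centring) and -1.25 between the IPs. EPKM of XPO5 was 0.106 in the Input, at the 83.3rd percentile of PCGs, but 0.0169 in the PABPN IP and 0.0153 in the PABPC IP. The Input value of XPO5 thus stood apart from both IPs. In the annotation, 7314 of the 8481 exonic bases of XPO5 (86.2%) lie within the span of POLR1C, an RNA polymerase subunit gene on the opposite strand. The authors removed overlapping regions before counting TPM, and their libraries were made with a stranded kit. Whether the counting used the strand is not stated in the sources used here. POLR1C itself had 15.0 TPM in the Input, 28.6 in the PABPN IP and 23.4 in the PABPC IP. Its EPKM was 0.0225 in the PABPC IP and listed at 0 elsewhere.

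DICER1 (ENSG00000100697, chr14:95086228-95158010, minus strand), which cuts the exported hairpin, had a TPM of 20.5 in the Input, 107.7 in the PABPN IP and 23.3 in the PABPC IP. The centred ratio between the IPs was -1.99, at the 2.48th percentile of PCGs. DICER1 was among the members furthest to the PABPN side, whereas its EPKM differed little between fractions. As its TPM differed more, this does not show equal editing per RNA. EPKM was 0.0434 in the Input, 0.0572 in the PABPN IP and 0.0472 in the PABPC IP.

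The Argonaute genes encode the proteins that hold the guide strand, and AGO2 is the paralog known for slicing targets. AGO1 (ENSG00000092847, chr1:35869808-35930532, plus strand) had a TPM of 26.9 in the Input, 81.6 in the PABPN IP and 47.5 in the PABPC IP. AGO2 (ENSG00000123908, chr8:140520156-140635633, minus strand) had 32.7, 149.7 and 41.8 TPM in the same order. AGO3 (ENSG00000126070, chr1:35930718-36072500, plus strand) had 4.79, 24.0 and 5.49 TPM. AGO2 and AGO1 were thus the abundant paralogs in every fraction, and AGO3 was close to the lower limit of 5 TPM in the PABPC IP. AGO4, the remaining paralog, had 6.19 TPM in the Input, 35.6 in the PABPN IP and 12.7 in the PABPC IP.

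AGO1 stood apart from its paralogs. Of the TPM summed over AGO1 to AGO4, AGO1 made up 38.1% in the Input, 28.0% in the PABPN IP and 44.2% in the PABPC IP, whereas AGO2 made up 46.4%, 51.4% and 38.9%. In these pooled values AGO2 had the largest share in the Input and the PABPN IP, and AGO1 in the PABPC IP. Without replicate values, whether the order of AGO1 and AGO2 changed between fractions cannot be told. The centred ratio between the IPs was -0.59 for AGO1, -1.64 for AGO2, -1.85 for AGO3 and -1.26 for AGO4. For PABPC IP over Input it was -0.14 for AGO1 and 0.03 for AGO4, near the PCG median, and -0.61 for AGO2 and -0.78 for AGO3, both of which changed sign without centring. AGO1 and AGO3 are neighbours on chromosome 1, where the annotated end of AGO1 and the start of AGO3 are separated by 185 bases. How reads that match more than a single paralog were counted was not examined.

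Editing separated the Argonaute genes further. EPKM of AGO1 was 0.0532 in the Input, 0.0279 in the PABPN IP and 0.118 in the PABPC IP, and AGO1 was the only member of which the PABPC IP value was at least 2-fold above the PABPN IP value, a call that was lost with a pseudocount of 0.1 EPKM. For AGO2 it was 0.0214, 0.0819 and 0.127, which is the highest PABPC IP value of the members and lies at the 83.5th percentile of PCGs. AGO3 ran the other way, with 0.00879 in the Input, 0.0634 in the PABPN IP and 0.00101 in the PABPC IP. AGO4 had 0.0391, 0.0165 and 0.0304.

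The TNRC6 genes encode the adaptors that connect Argonaute with the deadenylases. TNRC6A (ENSG00000090905, chr16:24610209-24827632, plus strand) had a TPM of 10.3 in the Input, 56.9 in the PABPN IP and 12.3 in the PABPC IP. TNRC6B (ENSG00000100354, chr22:40044817-40335808, plus strand) had 9.98, 39.3 and 7.80 TPM, and TNRC6C (ENSG00000078687, chr17:77958703-78108822, plus strand) had 5.30, 20.4 and 5.86 TPM. Together with AGO3 these were the least abundant members in the Input. Of the 10 members, TNRC6B alone had less TPM with PABPC than in the Input before centring, and its centred ratio of -1.29 was at the 1.36th percentile of PCGs. The centred ratios between the IPs were -1.98 for TNRC6A, -2.07 for TNRC6B and -1.53 for TNRC6C.

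In editing, TNRC6A and TNRC6C differed from TNRC6B. EPKM of TNRC6A was 0.00485 in the Input and 0.0603 in the PABPN IP, with 0 listed for the PABPC IP. TNRC6C had 0.00484 in the Input, 0.0987 in the PABPN IP and 0.00185 in the PABPC IP. For both, EPKM was highest in the PABPN IP, where TPM was also 4.64 and 3.49 times that of the PABPC IP. Editing per RNA was not compared. Their calls of at least 2-fold higher EPKM with PABPN were lost with a pseudocount of 0.1 EPKM, which values below 0.1 cannot pass. TNRC6B had 0.00880 in the Input and nearly equal values in the IPs, 0.0531 in the PABPN IP and 0.0542 in the PABPC IP. In the Input all 3 TNRC6 genes lay below the PCG median of 0.0273.

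Over the 10 members, EPKM was above 0 in the Input for 10, in the PABPN IP for 10 and in the PABPC IP for 9, against 78.1%, 72.9% and 82.6% of PCGs. The Input count was 6 above 0.01 EPKM (67.6% of PCGs) and 5 above 0.02 (56.8%). The PABPC IP count was 5 above 0.02 EPKM (70.5%). The fraction with the highest EPKM was the PABPN IP for 5 members (AGO3, TNRC6A, TNRC6C, DICER1 and DGCR8), the PABPC IP for 3 (AGO1, AGO2 and TNRC6B) and the Input for 2 (DROSHA and XPO5). Over PCGs these shares were 28.7%, 42.6% and 26.6%. On the scale of log2 (EPKM + 0.01), 4 members (AGO3, TNRC6A, TNRC6C and DGCR8) were higher by at least 2-fold with PABPN than with PABPC, as were 21.1% of PCGs. The reverse held for 1 member, AGO1, and for 36.3% of PCGs. With a pseudocount of 0.1 EPKM both of these counts were 0. An EPKM below 0.1 cannot pass there, which fixed the outcome for AGO3, TNRC6A and TNRC6C in advance. With a pseudocount of 0.001 EPKM the counts were 4 with PABPN and 1 with PABPC. The median EPKM of the members was 0.0184 in the Input, 0.0587 in the PABPN IP and 0.0297 in the PABPC IP, and over PCGs it was 0.0273, 0.0334 and 0.0501. The members thus had a higher median than PCGs in the PABPN IP and lower medians in the Input and the PABPC IP. The members' mean in the Input was higher, at 0.0337, and cannot be set against a PCG median. The number of edits behind each EPKM is unknown.

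**Figure D3:**
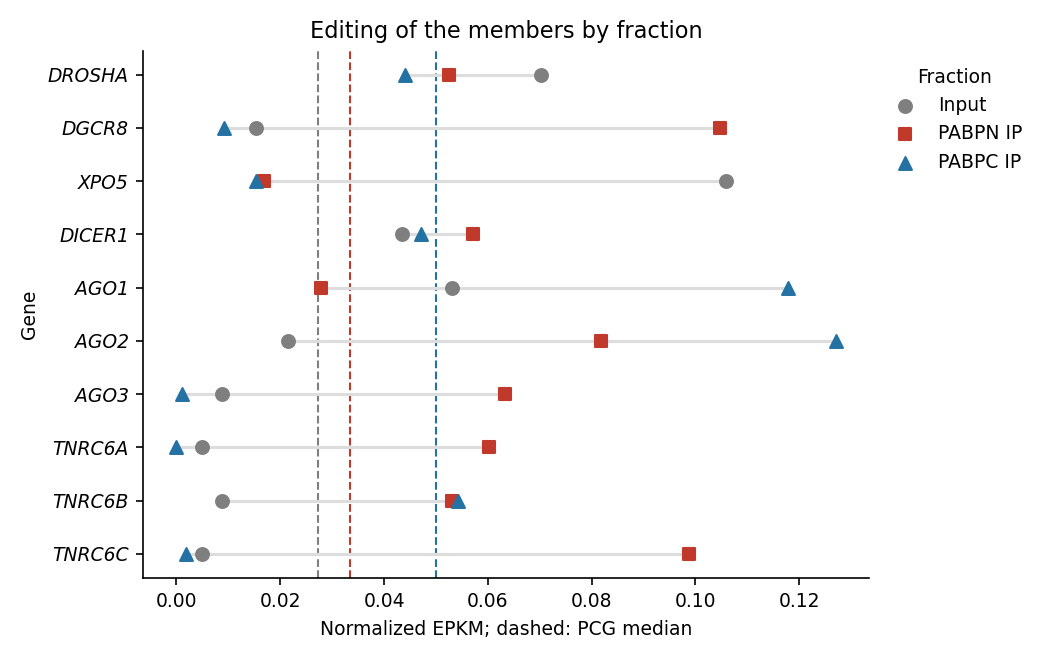
Normalized EPKM of the 10 members in the Input (circles), the PABPN IP (squares) and the PABPC IP (triangles), with the PCG median of each fraction as a dashed line of the same colour. DGCR8, AGO3, TNRC6A and TNRC6C have their square far to the right of the other symbols, AGO1 and AGO2 have the triangle on the right, and XPO5 and DROSHA the circle.

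Most members were long genes, although they varied in structure. Their median exonic length was 13506 bases and their median gene span was 123590 bases, against 5241 and 31553 bases for the 9598 annotated PCGs, and 9 of the 10, all but DGCR8, had an exonic length within the range of the 2400 longest PCGs. By gene span this held for 7 of the 10, and DGCR8, with 31657 bases, was near the PCG median. The 3′ UTR of the canonical transcript ran from 938 bases in DROSHA to 16755 in AGO3, with a PCG median of 1349. In the Argonaute genes most of the canonical transcript was 3′ UTR, with 10925 bases in AGO1 and 11888 in AGO2. The coding sequence reached 5889 bases in TNRC6A, 5811 in TNRC6C and 5769 in DICER1. Cytosine, the base that APOBEC1 edits, made up 18.7% of the canonical transcript in AGO3, 19.3% in DICER1 and 26.4% in TNRC6C, with PCG quartiles of 19.8% and 28.5%. Bases inside the span of another gene made up 86.2% of the exonic length in XPO5, 30.3% in TNRC6A, 16.8% in DGCR8 and 12.3% in TNRC6C, and at most 2.99% in the other members. Of these other 6 members, all 6 leaned to PABPN (31.1% of PCGs). EPKM was higher by at least 2-fold with PABPN for 1 of them, AGO3, a share near the 21.1% of PCGs.

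Across PCGs, exonic length moved with the lean between the IPs. Spearman's rho with the centred ratio of PABPC IP over PABPN IP was -0.51 over 9598 genes, which are not independent replicates, share their libraries and have TPM values that were themselves divided by length. Among the 2400 longest PCGs by exonic length, 57.0% leaned to PABPN and the median ratio was -0.66, whereas 10.2% of the 2400 shortest leaned to PABPN. Of the members, 9 lay below that median of the longest genes, and AGO1 lay above it. By gene span rho was weaker, at -0.31, and 44.75% of the 2400 longest PCGs leaned to PABPN. Their median ratio was -0.37, and all 10 members lay below it. The part of length in the members' lean was not tested.

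Other genes of the pathway were counted in lists by function, which were not tested against each other. The counts are read beside the shares over PCGs, 31.1% leaning to PABPN and 29.9% to PABPC, and a list of few genes can lie near those shares. Of 6 Microprocessor partners, 4 leaned to PABPN and 1 to PABPC. The helicase genes DDX17 and DDX5 were on the PABPN side, with centred ratios between the IPs of -1.89 and -1.32, and so were SAFB2 (-1.47) and SRRT (-0.53). ERH, which encodes a small Microprocessor cofactor, had 337.5 TPM in the Input, 364.1 in the PABPN IP and 932.0 in the PABPC IP, with a ratio of 1.54. Of the 2 transport genes besides XPO5, RAN, whose GTPase loads the export receptor, leaned to PABPC with a ratio of 1.28.

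Between the IPs, none of the 10 genes for Dicer partners and Argonaute loading leaned to PABPN and 5 leaned to PABPC (29.9% of PCGs): the chaperone genes FKBP4 (1.12), PTGES3 (0.94) and HSP90AB1 (0.88), the Dicer partner TARBP2 (0.72) and TSN (0.63). TPM of FKBP4 was 126.7 in the Input, 101.2 in the PABPN IP and 193.7 in the PABPC IP. Without centring TSN was inside the threshold, at 0.45, and ADAR leaned to PABPN, at -0.64. The median ratio of the list was 0.54, against -1.80 for the members. Against the Input, 5 of its genes were depleted from PABPN relative to the PCG median (20.6% of PCGs), but without centring only HSP90AB1 was below -0.5, and HSPA8 and PTGES3 changed sign. For PABPC IP over Input, 3 genes were depleted (17.4% of PCGs), none was enriched (9.02% of PCGs) and the median was -0.27. The 3 were HSP90AA1, HSP90AB1 and HSPA8, all of which changed sign without centring, where 7 of the 10 genes in the list were above 0.5, against 1 member and 80.2% of PCGs. In the ratio between the IPs, DICER1 and its partner TARBP2 lay on opposite sides of the PCG median.

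The silencing effectors were mixed. Of 23 genes, 13 leaned to PABPN (31.1% of PCGs), 3 leaned to PABPC (29.9%) and 7 were within the threshold, with a median of -0.71. The deadenylase subunit PAN2 leaned furthest at -3.02, with a TPM of 4.15 in the Input, 50.9 in the PABPN IP and 5.07 in the PABPC IP. It was followed by the helicase gene MOV10 (-1.78), the decapping genes DCP2 (-1.53) and DCP1A (-1.38) and the exonuclease gene XRN1 (-1.51). The genes on the PABPC side, named after their values were seen, were the cap-binding gene EIF4E2 (0.77) and the deadenylase genes CNOT7 (0.55) and CNOT6 (0.51). Without centring EIF4E2 alone was past the threshold, at 0.58, with CNOT7 at 0.36 and CNOT6 at 0.32.

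Genes for turnover and tailing of microRNAs leaned mostly as the members did. Of 8 with at least 5 TPM in both IPs, 7 leaned to PABPN (31.1% of PCGs) and none to PABPC. ZSWIM8, known from target-directed decay of microRNAs, had 7.07 TPM in the Input, 58.2 in the PABPN IP and 9.52 in the PABPC IP, with a ratio of -2.36. The uridylating enzymes TUT4 and TUT7 stood at -1.87 and -1.40, TRIM71 at -1.12, TENT2 at -0.87 and LIN28B, which blocks let-7 maturation, at -0.71. DIS3L2 was below 5 TPM in the PABPC IP, and LIN28A was not analysed here.

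**Figure D4:**
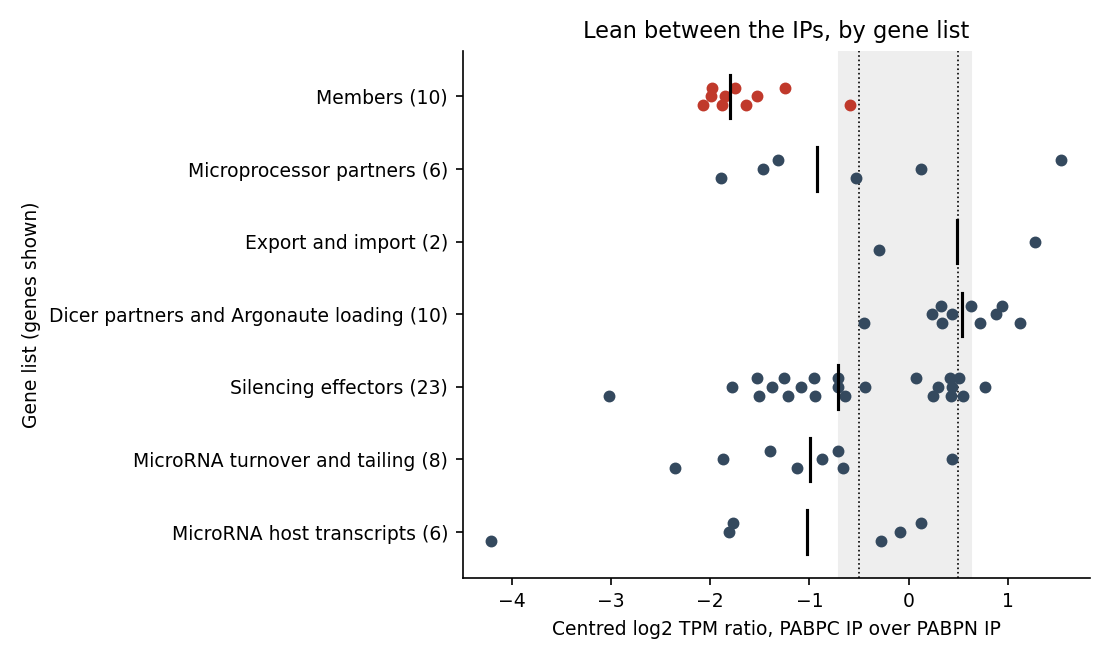
Centred log2 TPM ratio of PABPC IP over PABPN IP for the members (red) and 6 lists of other pathway genes (blue), with list medians as black bars, the PCG quartiles shaded and the thresholds of 0.5 and -0.5 dotted. The members lie on the left and the Dicer partner and Argonaute loading genes mostly on the right, with medians of -1.80 and 0.54.

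Of 6 host transcripts with at least 5 TPM in both IPs, 3 leaned to PABPN (31.1% of PCGs) and none to PABPC. The other 2 of the list, MIR22HG and MIRLET7BHG, were under that limit in the PABPC IP, at 0.446 and 0.345 TPM, and their ratios were -3.06 and -2.31. MIR17HG had 8.54 TPM in the Input, 135.4 in the PABPN IP and 5.96 in the PABPC IP, with a ratio of -4.21. MCM7, which carries the same seed AAAGUGC in an intron, had 159.7, 196.8 and 189.4 TPM and a ratio of 0.13, or -0.06 without centring. Hosts of the seed AGCAGCA differed as well, with -1.77 for SMC4 and -0.28 for DLEU2, whereas HUWE1 (-1.81) and MIRLET7BHG, which share the let-7 seed GAGGUAG, lay on the same side. The microRNA gene MIR19A within MIR17HG had 0.278 EPKM with PABPN, with 0 listed for the other fractions, and MIR18A in the same intron was listed at 0 in all 3. Values for a host do not measure the mature microRNA.

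The PCGs whose 6 values were nearest to the members' median profile, by Euclidean distance over log2 (TPM + 0.5) and log2 (EPKM + 0.01) in the 3 fractions, were RC3H1 (distance 0.234), PRR14L (0.567), ZFX (0.618), ZNF589 (0.663) and AFF4 (0.720). RC3H1 had 19.2 TPM in the Input, 81.1 in the PABPN IP and 21.9 in the PABPC IP. The members' own distances from that profile ran from 1.17 for DICER1 to 3.82 for TNRC6C. The 5 PCGs were picked as the nearest, so the distances of the 2 groups cannot be compared.

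Marker genes gave the reference for the fractions. The nuclear lncRNAs MALAT1 and NEAT1 had 55.0 and 4.27 TPM in the Input, 207.9 and 55.8 in the PABPN IP, and 10.3 and 3.25 in the PABPC IP, with ratios between the IPs of -4.08 and -3.72. The abundant translated mRNA of ACTB had 1891 TPM in the Input, 1609.9 in the PABPN IP and 3819 in the PABPC IP, with a ratio of 1.43, and RPL7A and GAPDH were on the same side. In the ratio between the IPs, the members lay between these groups. This did not hold for PABPN IP over Input, where MALAT1 stood at 0.81, below the members' median of 1.08. The histone mRNAs H4C3 and H1-4, which lack a poly(A) tail, had 3128 and 3090.3 TPM in the Input, 425.3 and 563.1 in the PABPN IP, and 735.7 and 411.3 in the PABPC IP. Their levels remained high in both IPs, but their ratios to the Input lay far below the PCG median, at -3.98 and -3.56 for PABPN IP over Input and -3.04 and -3.86 for PABPC IP over Input. Of the markers of the line, INA and NEFM had 24.1 and 9.0 TPM in the Input, and PAX2 and LHX1 were low at 0.797 and 0.913 TPM. Of 5 markers of other cell types, COL1A1 was listed, with 1.90 TPM in the Input, and PTPRC, CD3E, ALB and HBB were not analysed here.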

How the data were processed

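The Input was compared with RNA from the PABPN and PABPC IPs. Reads were aligned to hg38 with STAR and counted with featureCounts 2.0.2, per the submitters' processing notes and the paper's methods. The deposited EPKM is a background-subtracted signal, and the deposited TPM is a signal averaged per fraction, for which the authors added exonic and intronic TPM after removing from the annotation readthrough transcripts and regions shared by overlapping genes. How replicates were combined, which samples entered each average and how differences below 0 were handled is not given in the sources used here. The paper gives a lowest and an average read number for the STAMP libraries together. Depth of each sample and edit counts are not given.

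Members and lists were chosen with earlier results of these data known. Named were all 10 members, AGO4, and per pathway list at most 6 genes past the threshold by size of the log2 ratio. Outside this rule, EIF4E2, CNOT7, CNOT6, ADAR, HSP90AA1, HSPA8, MCM7, DLEU2, MIR22HG, MIRLET7BHG and genes sharing bases with members or hosts were named after values were seen. Positions, lengths and overlaps came from GENCODE release 44, which differs from the authors' annotation. The computation of the centred ratio was checked on simulated data, with few genes shifted, by well over the threshold and with little noise. That setting was easier than these data, so it does not bear on the calls reported here. Values were computed in Python 3.11.15 with pandas 2.3.3 and NumPy 2.4.6, rank correlations with SciPy 1.17.1, and plots with matplotlib 3.10.9.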

Additional observations from a re-analysis of the deposited data

How the results depend on the processing

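No paired analysis was possible because the deposited values are pooled over replicates, and leaving out a replicate was not run for the same reason. With no replicate spread, a count or EPKM was taken as unmoved within a factor of 1.5, and a log2 ratio within 0.58. The lean of all 10 members to PABPN over PABPC kept its direction under no centring, a pseudocount of 0.1 TPM and both other centring sets, with a median between -1.99 and -1.69, although AGO1 was inside the threshold at -0.47 when centred on PCGs of at least 1 TPM in every fraction. Without centring, the median for PABPN IP over Input was 2.18 and that for PABPC IP over Input changed sign to 0.21, with AGO2 at 0.35, AGO3 at 0.18, TNRC6A at 0.24, TNRC6C at 0.13, DICER1 at 0.18, DROSHA at 0.25 and XPO5 at 0.05. The members depleted from PABPC then numbered 0 and those enriched 1, since centring shifts all genes alike. With a threshold of 1, depletion from PABPC held for 1 member and 3.81% of PCGs. In an alternative chosen after seeing the data, TNRC6A, TNRC6C, DGCR8 and XPO5, with over 10% of exonic bases inside another gene, were left out. Of the other 6 members, 5 were enriched with PABPN (23.7% of PCGs), 5 were depleted from PABPC (17.4%), 6 leaned to PABPN (31.1%) and 1 had EPKM higher by at least 2-fold with PABPN, near the share of PCGs (21.1%). These counts come from fewer genes. Editing calls were sensitive to low values. EPKM was above 0.01 for 6 members (67.6% of PCGs) and above 0.02 for 5 (56.8%) in the Input, and above 0.02 for 5 (70.5%) in the PABPC IP. With a pseudocount of 0.1 EPKM, 0 members were at least 2-fold higher in either IP, against 3.71% of PCGs with PABPN and 9% with PABPC. AGO3, TNRC6A and TNRC6C, below 0.1 EPKM in the PABPN IP, could not pass at that pseudocount. With 0.001 EPKM the counts were unmoved, at 4 with PABPN and 1 with PABPC. By any amount, 7 members (37.4% of PCGs) were higher in the PABPN IP and 3 (56.4%) in the PABPC IP. The mean EPKM in the Input was 0.0337, in place of a median of 0.0184. Read depth is known for the libraries as a whole and not per sample, and the number of edits, which limits these values, is not given.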
